A study of Danio rerio with 10 samples.

Results

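The glypican genes are the rows of the deposited count table whose gene symbol begins with gpc and a digit from 1 to 6, which gave 10 of 32520 genes: *gpc1a*, *gpc1b*, *gpc2*, *gpc3*, *gpc4*, *gpc5a*, *gpc5b*, *gpc5c*, *gpc6a* and *gpc6b*. The family was picked because *gpc1b* was among the genes called higher in *prdm1a*-/- libraries. That difference is therefore described here and not tested again. The other 9 genes entered by their symbol. At 48 hpf, zebrafish embryos with the *Tg(Mmu:Prx1-EGFP)* transgene had been sorted for EGFP and their RNA sequenced, with 2 libraries from *prdm1a*-/- embryos (allele *m805/m805*, NRD MT in the titles) and 2 from WT embryos, each from pooled embryos. All 4 libraries carry the transgene, in which an enhancer of mouse *Prx1* drives EGFP in the pectoral fin and also in the pharyngeal arches and the dorsal head. Heads and arches were cut away before the sort, but the paper states that some of that arch and dorsal head tissue may have remained. The *m805* allele stops translation early, within the SET domain, and is presumed null. Mutant embryos were picked by their pigment phenotype.

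Glypicans are heparan sulfate proteoglycans, held on the outer face of the cell membrane by a glycosylphosphatidylinositol (GPI) anchor. Their heparan sulfate chains bind growth factors, and the family is known to raise or dampen signalling by Wnt, Hedgehog, Fgf and Bmp ligands in developing tissues, limbs among them. In zebrafish, *gpc4* is the *knypek* gene, known for its part in cell movements at gastrulation and in the shaping of cartilage. In humans, loss of *GPC3* causes an overgrowth syndrome and loss of *GPC6* a form of short-limbed stature.

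The libraries held 20303621 and 26798799 counts on genes for *prdm1a*-/- replicates 1 and 2, against 22865061 and 22008119 for WT replicates 1 and 2. Levels are given as CPM, counts scaled to a common library size by library total and TMM factor, and a gene at 0 counts could hold up to 3 by counting error, or 0.116 to 0.147 CPM. Differences between genotypes are log2 fold changes of *prdm1a*-/- over WT from edgeR's quasi-likelihood model with the replicate number as a block, so that a mutant library is compared with the WT library that has the same number. Called means a Benjamini-Hochberg adjusted p under 0.05 over all 20007 genes tested. With the block 203 genes, 1.01% of those tested, were called, and with genotype as the only term 0 were called by the same test. *prdm1a* had 123 and 302 CPM in *prdm1a*-/- libraries, against 50.1 and 232 CPM in WT libraries, and since the mutant transcript can still be counted this does not check the labels. Summed over 6 markers, fin mesenchyme transcripts stood at 880 and 595 CPM in *prdm1a*-/- libraries and at 923 and 790 CPM in WT libraries. The sort was not pure fin mesenchyme, since 5 epidermal markers summed to 8219 to 11961 CPM over the 4 libraries. Of 10 marker lists, those of neurons and brain and of neural crest and pigment cells were lower in *prdm1a*-/- libraries without overlap. Of single genes, 2708 of the 20007 tested were lower without overlap, and 26.2% did not overlap in either direction. The neuron and brain list summed to 149 and 115 CPM in *prdm1a*-/- libraries, against 180 and 216 CPM in WT libraries. Of its 6 genes 2 were called lower, while *snap25a*, *sox2* and *gap43* had positive log2 fold changes (0.19, 0.36 and 0.27) and were not called. The neural crest and pigment list summed to 36.9 and 30.2 CPM, against 92.2 and 67.3 CPM, with 3 of 6 genes called lower. *hand2*, 1 of the 6 fin mesenchyme markers, 2 of 5 pharyngeal arch markers and 1 of 4 blood markers were also called lower in *prdm1a*-/- libraries. Some members of these lists had positive log2 fold changes and were not called. They were *fgf10a* (0.27) and *prrx1a* (0.024) of fin mesenchyme, *nkx2.3* (0.40) of the arches and *hbae1.1* (0.055) of blood. The cartilage marker *matn1* was at 0 counts in *prdm1a*-/- replicate 1. None of the 10 lists was higher without overlap, and the part of the lower lists in the differences below was not tested.

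*gpc1b* (ENSDARG00000090585) had 2193 and 2164 counts in *prdm1a*-/- replicates 1 and 2, against 707 and 495 counts in WT replicates 1 and 2. Scaled, this was 107 and 83.4 CPM in *prdm1a*-/- libraries and 30.9 and 22.0 CPM in WT libraries, so both mutant libraries lay far above both WT libraries. The mutant library was 3.48-fold higher in the libraries numbered 1 and 3.79-fold higher in those numbered 2. The fitted log2 fold change was 1.86 (SE 0.141), or 3.63-fold. Among the 20007 genes tested, 175 had a larger fitted log2 fold change. Among the 3068 genes with at least the mean CPM of *gpc1b*, 2 had a larger one. These values come from the comparison that brought the family to attention and carry no test. In bulk samples of sorted cells, more cells that express a gene and more RNA per cell cannot be told apart.

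**Figure D1:**
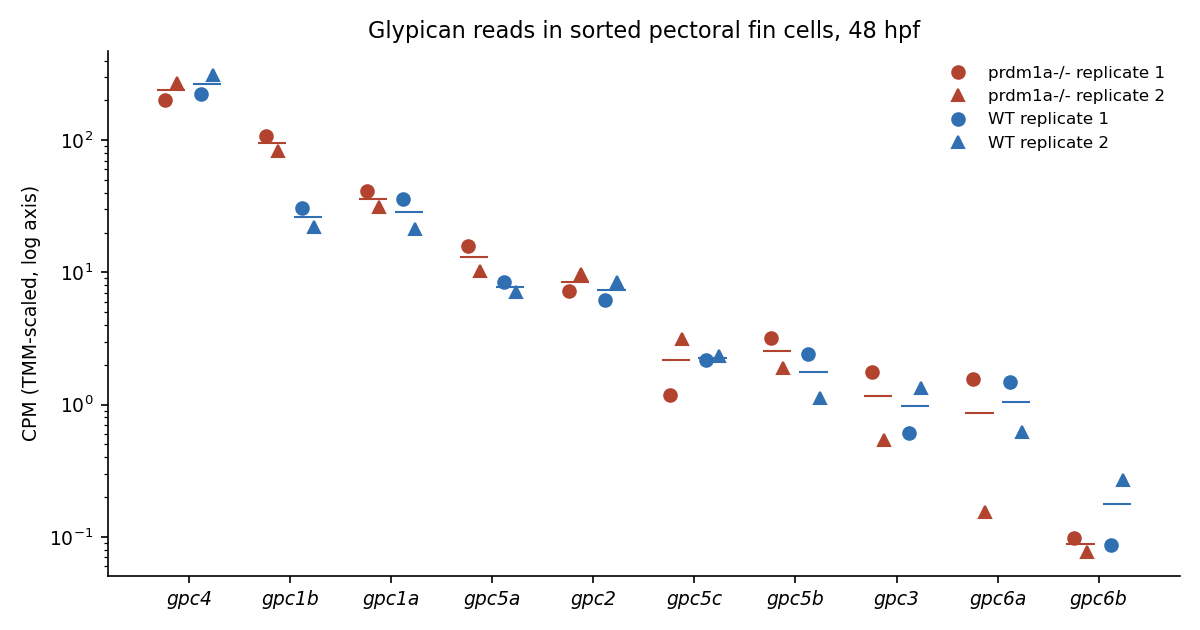
CPM (log axis) of the 10 glypican genes in each library, with *prdm1a*-/- in red left of WT in blue, circles for replicate 1, triangles for replicate 2 and lines for the mean of 2. The *gpc1b* points at 107 and 83.4 CPM in *prdm1a*-/- stand above 30.9 and 22.0 CPM in WT, while most other genes overlap. Levels of different genes are not set against each other, because CPM does not correct for transcript length.

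The paralog of *gpc1b*, *gpc1a* (ENSDARG00000019341), had 41.1 and 31.0 CPM in *prdm1a*-/- libraries, against 36.0 and 21.4 CPM in WT libraries. Its genotypes overlapped, and the second mutant library lay below the first WT library. The log2 fold change was 0.36 (SE 0.168, 95% interval -0.015 to 0.74, adjusted p = 0.421). Within a library the reads of the 2 paralogs can be set against each other across genotypes without a length. There were 2.62 and 2.69 *gpc1b* reads per *gpc1a* read in *prdm1a*-/- libraries, against 0.856 and 1.03 in WT libraries. This ratio rests on the *gpc1b* counts that chose the family, so its separation of the genotypes is description only. How the authors' counting treated reads that could fit both paralogs is not given in the sources used here.

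*gpc4* (ENSDARG00000015472), which takes most glypican reads of every library, had 202 and 273 CPM in *prdm1a*-/- libraries, against 221 and 313 CPM in WT libraries. The mutant library was the lower one under both replicate numbers, but the genotypes overlapped. Its log2 fold change was -0.16 (SE 0.132, 95% interval -0.46 to 0.13, adjusted p = 0.680), the tightest estimate in the family.

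*gpc5a* (ENSDARG00000103647) was the other glypican whose genotypes did not overlap. It had 15.9 and 10.3 CPM (324 and 268 counts) in *prdm1a*-/- libraries, against 8.42 and 7.12 CPM (193 and 160 counts) in WT libraries. Both mutant libraries lay above both WT libraries, the second by little. Its log2 fold change was 0.73 (SE 0.244, 95% interval 0.18 to 1.27), and with an adjusted p of 0.248 it was not called. Of the 8 glypicans tested beside *gpc1b*, *gpc5a* was the 1 that did not overlap, while 12.7% of all genes lay above WT without overlap in *prdm1a*-/- libraries and 26.2% did not overlap in either direction.

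*gpc2* (ENSDARG00000104217), named in mammals for its place in developing neurons, had 7.25 and 9.71 CPM in *prdm1a*-/- libraries, against 6.15 and 8.50 CPM in WT libraries. Each mutant library was a little higher than its WT partner, while the genotypes overlapped (log2 fold change 0.21, SE 0.265, adjusted p = 0.814). *gpc5b* (ENSDARG00000024588) had 3.18 and 1.89 CPM in *prdm1a*-/- libraries, against 2.40 and 1.11 CPM in WT libraries (log2 fold change 0.58, SE 0.513, adjusted p = 0.718). It too was higher in both mutant libraries than in their partners, from only 25 to 65 counts in a library.

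The 4 remaining genes were thinly covered, and their pairs disagreed. *gpc5c* (ENSDARG00000074082) had 24 and 82 counts in *prdm1a*-/- libraries, against 50 and 52 in WT libraries, so the mutant library was lower in the first pair and higher in the second. *gpc3* (ENSDARG00000032199) had 36 and 14 counts in *prdm1a*-/- libraries, against 14 and 30 in WT libraries, with the opposite order. *gpc6a* (ENSDARG00000103156) had 32 and 4 counts in *prdm1a*-/- libraries, against 34 and 14 in WT libraries, and its first pair hardly differed. Their log2 fold changes were -0.19 (SE 0.540) for *gpc5c*, 0.12 (SE 0.841) for *gpc3* and -0.75 (SE 0.846) for *gpc6a*, with adjusted p of 0.936, 0.978 and 0.792. Differences of 2-fold in either direction lie inside all 3 intervals, which run from -1.39 to 1.02, from -1.75 to 1.99 and from -2.64 to 1.13. *gpc6b* (ENSDARG00000104219) had 2 and 2 counts in *prdm1a*-/- libraries, against 2 and 6 in WT libraries, and was not tested.

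Of the 8 glypicans tested beside *gpc1b*, 0 were called by edgeR with the block, against 1.01% of all genes. *gpc5a* alone had an unadjusted p under 0.05, as 12.4% of all genes did, and DESeq2 and limma-voom with the block also called 0 of the 8. Of the same 8, 4 were higher in the *prdm1a*-/- library of both pairs, against 29.2% of all genes.

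**Figure D2:**
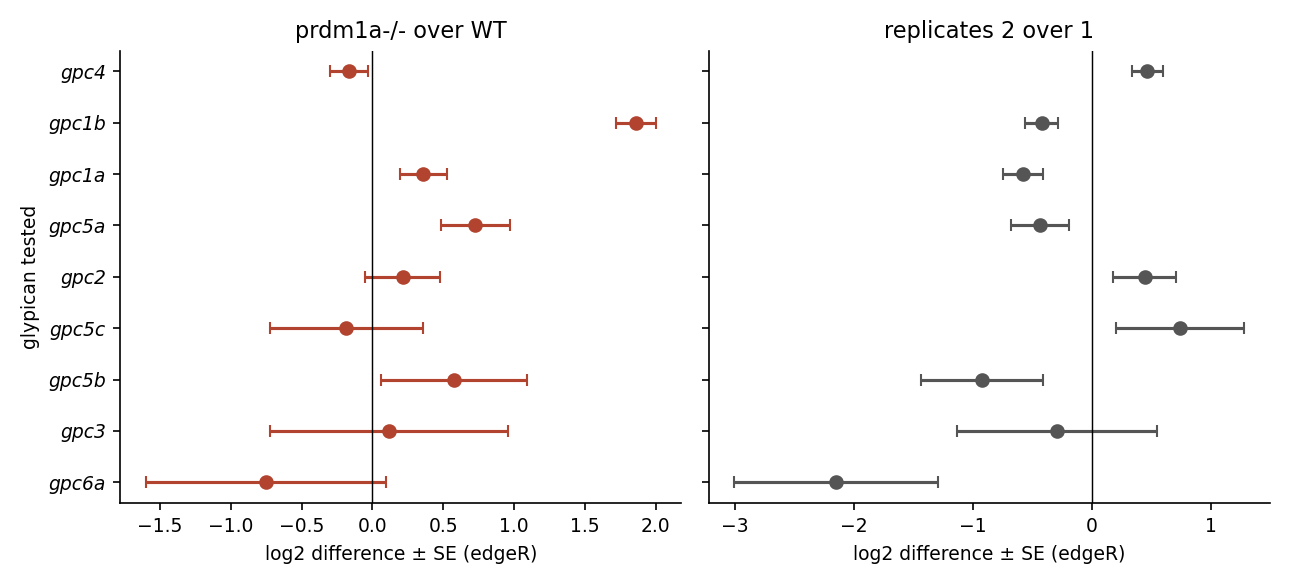
Fitted log2 differences with their standard errors for the 9 glypicans tested, on the left *prdm1a*-/- over WT and on the right replicates 2 over 1 from the same model. On the left *gpc1b* stands at 1.86 and the others between -0.75 and 0.73. On the right *gpc4* (0.46) lies above 0 and *gpc1a* (-0.58) below it, and the 2 axes differ in range.

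The make-up of the glypican reads differed between genotypes through *gpc1b*. It held 28.1% (Wilson 95% interval 27.2 to 29.2) of 7791 and 20.2% (19.4 to 21.0) of 10717 glypican reads in *prdm1a*-/- replicates 1 and 2. In WT replicates 1 and 2 it held 9.96% (9.29 to 10.7) of 7097 and 5.83% (5.35 to 6.35) of 8487 reads. *gpc4* held 53.0% and 66.0% of the glypican reads in *prdm1a*-/- libraries, against 71.5% and 82.9% in WT libraries. These intervals cover counting error only. They are narrower than the gap between the 2 libraries of a genotype. The share of *gpc1b* rests on the counts that chose the family, so its separation of the genotypes is description only. The share of *gpc4* has to fall as that of *gpc1b* grows, and its own CPM overlapped. The family summed to 382 and 413 CPM in *prdm1a*-/- libraries, against 310 and 378 CPM in WT libraries. Without *gpc1b* the sums were 274 and 330 CPM in *prdm1a*-/- libraries, against 279 and 356 CPM in WT libraries, and overlapped.

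**Figure D3:**
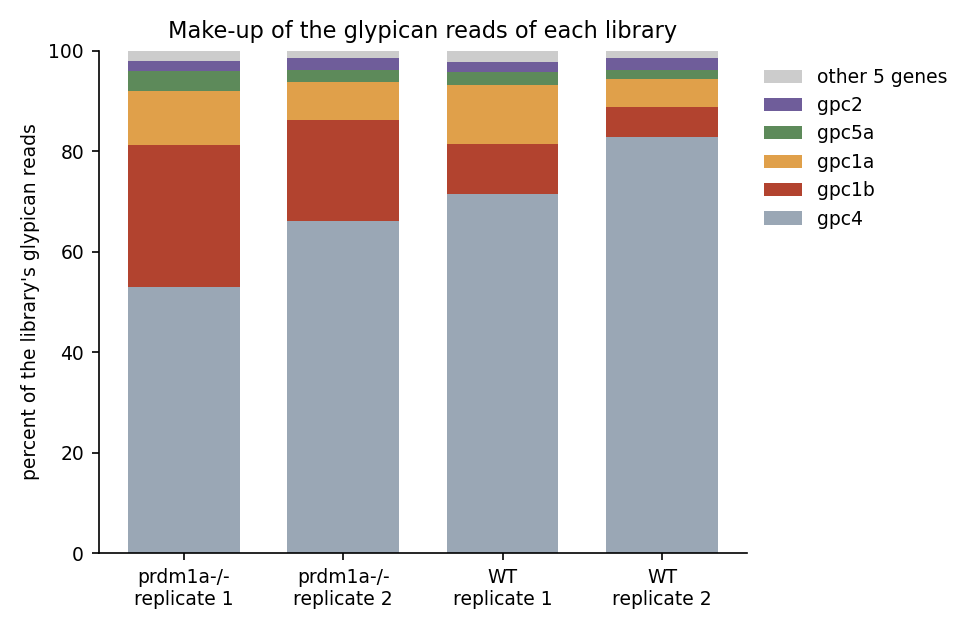
Percent of each library's glypican reads that fell on *gpc4*, *gpc1b*, *gpc1a*, *gpc5a*, *gpc2* and the other 5 genes, with *prdm1a*-/- bars left of WT bars. The red segment, *gpc1b*, takes 28.1% and 20.2% in *prdm1a*-/- and 9.96% and 5.83% in WT.

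The replicate numbers give a comparison that played no part in choosing the family. Of the 9 glypicans tested, 2 were called between replicates 2 and 1, as 24.7% of all genes were. *gpc4* was higher in replicates 2 under both genotypes, with a log2 difference of 0.46 (SE 0.132, adjusted p = 0.0277). *gpc1a* was lower in replicates 2, by -0.58 (SE 0.168, adjusted p = 0.0308), and DESeq2 did not call it (adjusted p = 0.103). *gpc1b* was also lower in replicates 2 under both genotypes, at -0.42 (SE 0.141), and missed the threshold with an adjusted p of 0.0524. The genotype difference of *gpc1b* chose the family and so is not set against this one. For *gpc4* and *gpc1a* the difference between replicate numbers was larger than that between genotypes. Some marker genes differed more between the numbers, and not in 1 direction. The cartilage collagen *col2a1a* had 281 CPM in replicate 2 and 16308 CPM in replicate 1 of *prdm1a*-/-. In WT it had 673 CPM in replicate 2 and 21529 CPM in replicate 1. Of the 5 cartilage markers, *col9a1a* was also called lower in replicates 2 (log2 difference -2.20, adjusted p = 4.2e-04). *sox9a*, a regulator of the same cells, was called higher (0.79, adjusted p = 0.0037). *acana* (-0.31) and *matn1* (0.34) were not called. Markers of other lists differed too. Of skeletal muscle, *actc1b* (-2.65), *tnnt3b* (-2.02), *mylpfa* (-1.96), *myod1* (-0.85) and *myog* (-0.62) were called lower in replicates 2, and *acta1a* (0.081) was not called. Of epidermis, *tp63* (-1.83) and *krt5* (-1.38) were called lower, *epcam* (1.32) and *cdh1* (1.13) higher, and *krt4* (-0.21) was not called. The part of other cell types in the differences of *gpc4* and *gpc1a* was not tested.

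Every glypican needs enzymes that build its heparan sulfate, and genes around it were listed by role. The 65 genes were for linker, chain, modification, precursors, remodelling outside the cell, other core proteins, glypican cleavage and the GPI transamidase. Of these 62 had a row in the table and 58 were tested, while *hs3st1*, *hs3st1l1* and *sdc3* were not analysed here. EdgeR with the block called 0 of the 58, against 1.01% of all genes. An unadjusted p under 0.05 went to 9 of the 58, 8 of them lower and 1 higher in *prdm1a*-/- libraries. Of all 20007 genes tested 2490 (12.4%) had one, 1210 lower and 1280 higher. The median log2 fold change of the 58 was -0.11, against 0.0068 over all genes, and their standard errors ran from 0.131 to 0.797.

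None of the genes that build the chain or its precursors was called. *ext2* and *ext1a*, which polymerize the chain, had log2 fold changes of 0.061 (SE 0.143) and 0.17 (SE 0.160). *fam20b*, a kinase of the linker, stood at 0.13 (SE 0.168) and *xylt1*, which adds the first sugar, at -0.44 (SE 0.170, adjusted p = 0.319). The 6 linker genes ran from -1.05 to 0.34. *ugdh* and *papss2b*, which supply the sugar and sulfate donors, were at -0.11 (SE 0.141) and -0.070 (SE 0.137).

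Among the sulfotransferases, *hs3st3b1b*, which adds the rare 3-O-sulfate, came closest to a call. It had 58.9 and 68.3 CPM in *prdm1a*-/- libraries, against 87.8 and 103 CPM in WT libraries, with no overlap. Its log2 fold change was -0.58 (SE 0.134, adjusted p = 0.0834 by edgeR). Limma-voom with the block called it lower (adjusted p = 0.0359), and DESeq2 did not (adjusted p = 0.194). *ndst2a*, an N-deacetylase and N-sulfotransferase, was at -0.20 (SE 0.139).

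All 5 genes listed for remodelling of the chain outside the cell had negative log2 fold changes, from -0.74 to -0.33. Of the 20007 genes tested 9856 had a negative one, and 0 of the 5 were called, against 1.01% of all genes. Of the sulfatases, which remove 6-O-sulfate, *sulf1* had 105 and 145 CPM in *prdm1a*-/- libraries, against 132 and 192 CPM in WT libraries (log2 fold change -0.37, SE 0.131, adjusted p = 0.279). *sulf2b* had 640 and 849 counts in *prdm1a*-/- libraries, against 1145 and 1016 counts in WT libraries (-0.57, SE 0.154, adjusted p = 0.142). The CPM of its genotypes did not overlap, and those of *sulf1* did.

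Of the other core proteins, the syndecan *sdc4* had 341 and 1670 CPM in *prdm1a*-/- libraries, against 286 and 1425 CPM in WT libraries. It differed more between the replicate numbers, by a log2 difference of 2.31 (SE 0.138, adjusted p = 1.94e-06), beside 0.24 (SE 0.138, adjusted p = 0.527) for the genotype. *col18a1a*, a basement membrane collagen that carries heparan sulfate, was at 0.37 (SE 0.173, adjusted p = 0.431). *furina*, of the convertases that cleave glypicans, was the 1 gene with a positive log2 fold change at an unadjusted p under 0.05 (0.42, SE 0.141, adjusted p = 0.246), and *pcsk5b* stood at -0.021 (SE 0.144). *gpaa1* and *pigs*, of the transamidase that attaches the GPI anchor, were at 0.29 (SE 0.191) and 0.012 (SE 0.205).

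*gpc4* is known from zebrafish gastrulation to act with genes of non-canonical Wnt and planar cell polarity signalling, of which 14 symbols with 15 identifiers were tested. EdgeR with the block called 0 of the 15, against 1.01% of all genes. An unadjusted p under 0.05 went to 2 of the 15, both lower in *prdm1a*-/- libraries. Of all 20007 genes tested 2490 (12.4%) had one, 1210 lower and 1280 higher. DESeq2 and limma-voom also called 0. *fzd7a*, a Wnt receptor, had 273 and 192 CPM in *prdm1a*-/- libraries, against 296 and 299 CPM in WT libraries (log2 fold change -0.38, SE 0.156, adjusted p = 0.359). *scrib*, a scaffold of cell polarity, was at -0.090 (SE 0.135). The list's median was -0.13. Of the 15, 6 were lower in *prdm1a*-/- libraries without overlap and 0 were higher without overlap. Of all 20007 genes tested, 2708 were lower and 2535 higher without overlap. The list was not tested as a set.

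**Figure D4:**
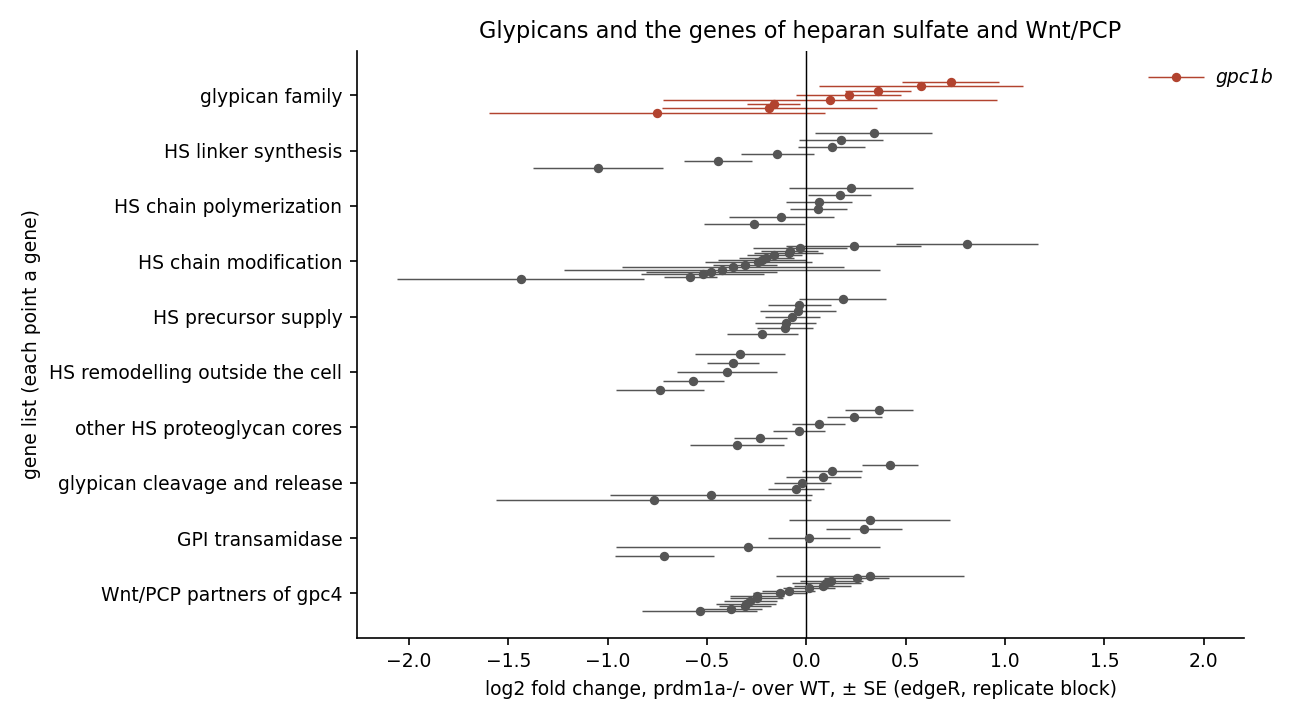
Log2 fold changes of *prdm1a*-/- over WT with their standard errors for the glypicans (red), the heparan sulfate genes by role and the Wnt and planar cell polarity genes, each point a gene. *gpc1b* at 1.86 lies alone on the right, and the 58 heparan sulfate genes tested run from -1.44 to 0.81 around a median of -0.11.

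Several glypican genes lie close to another. In RefSeq's gene order for the assembly GRCz12tu, which is not the build the reads were aligned to, *gpc4* and *gpc3* are next to each other, as are *gpc1a* and *gpc5b*, with 0 protein-coding genes between them. *gpc1b* and *gpc5c* have 1 protein-coding gene between them, and *gpc5a* and *gpc6a* have 2. *gpc2* and *gpc4* share a chromosome with 564 protein-coding genes between them, and *gpc6b* has no other glypican on its chromosome. None of the 10 shares a chromosome with *prdm1a*. The difference of *gpc1b* was not seen in *gpc5c*, whose log2 fold change was -0.19 (SE 0.540). Neighbours were matched by symbol or synonym, and genes without a match among tested genes or with a repeated symbol were passed over. Of the 5 nearest tested genes so matched on each side of *gpc1b*, 0 of 10 were called, against 1.01% of all genes. That count does not set them apart. On one side *ephb1*, an ephrin receptor, was at 0.025 (SE 0.526) and *pax3a*, a transcription factor of muscle and neural crest precursors, at 0.33 (SE 0.312). The highest of the 10 was *fndc7a* at 1.41 (SE 0.631, adjusted p = 0.431), which rests on 6 counts in WT replicate 2 beside 72 to 106 elsewhere.

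**Figure D5:**
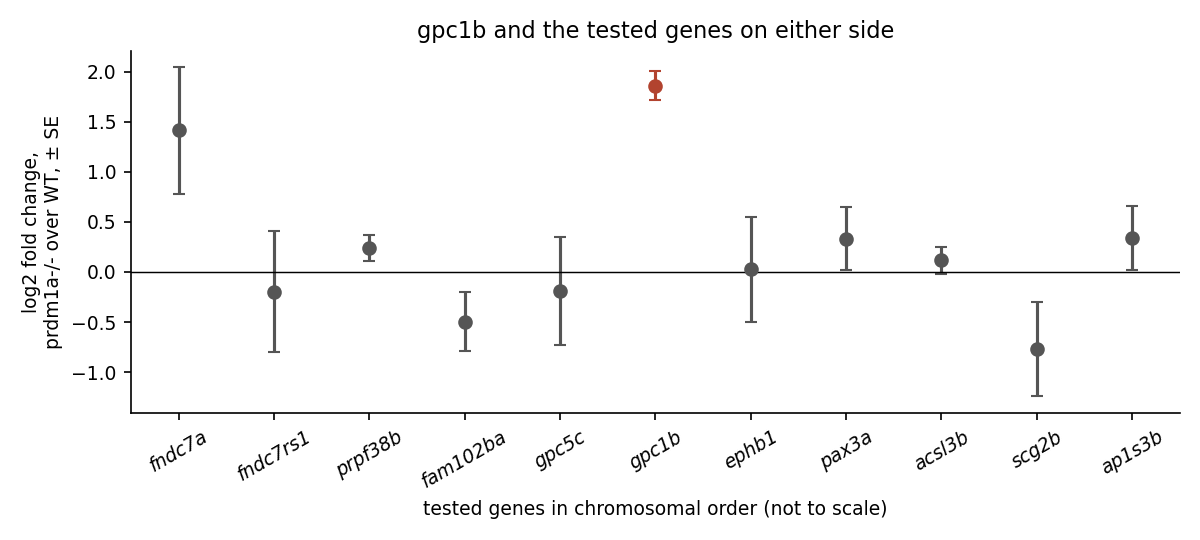
Log2 fold change of *prdm1a*-/- over WT with its standard error for *gpc1b* (red) and the 5 nearest tested genes matched by name on either side. They stand in the gene order of GRCz12tu, not to scale. *gpc1b* is at 1.86 and its neighbours run from -0.77 to 1.41, with 0 of them called.

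The genes whose pattern over the 4 libraries was most like that of *gpc1b* were sought by the distance between mean-centred log2 CPM, among 15241 tested genes with a mean of at least 50 counts. The nearest 5 were *nlgn4xa* (0.25), a neuroligin of synapses, *si:ch211-106h4.12* (0.27), *tec* (0.33), a tyrosine kinase, *cfap100* (0.36), of cilia, and *igsf9bb* (0.40), an immunoglobulin superfamily gene. They held far fewer reads, with *nlgn4xa* at 106 and 122 counts in *prdm1a*-/- libraries, against 30 and 22 counts in WT libraries. The nearest glypican was *gpc5a* at a distance of 1.16, with 139 of these genes nearer. *gpc5b*, whose mean count is below that minimum, was at 1.38, with 450 of these genes nearer. With 4 libraries many genes share such a pattern, and the distances are a description only.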

How the data were processed

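RNA-seq counts of 4 libraries (2 *prdm1a*-/-, 2 WT) were used. The authors trimmed the reads, mapped them with STAR 2.7.10b to danRer11 and counted reads per gene with featureCounts, and they deposited whole-number counts without normalization. For gene models, strand setting and reads that fit several genes, the choices are not stated in the sources used here. The same table holds the authors' own comparison in 6 columns (means, fold changes, errors, statistics, p-values) and 4 columns of log2 values per library, which were not used. The CUT&RUN samples and the protein and promoter sequences were not analysed here.

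Counts were tested with edgeR 4.0.16 (R 4.3.3, TMM, filterByExpr with minimum count 10 and total 15, two-sided quasi-likelihood test, Benjamini-Hochberg). Standard errors come from the model's information matrix times its quasi-dispersion. The replicate number is in the model because the family had been picked on values compared within it, and an earlier analysis of these data had found that term in the authors' own comparison. The labels do not say that a number marks a shared batch. In these counts same-numbered libraries deviated together from their genotype's mean (r = 0.70 across genes, which are not independent), and the first principal component (68.4% of variance) separated the numbers. The block leaves 1 residual degree of freedom, so the quasi-likelihood test of a gene draws largely on the spread of other genes. The paper calls the 2 replicates of each genotype biological. It does not say that the pools came from separate clutches, so p-values measure only the spread between these libraries. Alternatives were DESeq2 1.42.0, limma-voom (limma 3.58.1), RLE size factors, other filters, genotype alone, and leaving out each library. The scripts were tested on simulated data.

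Members and lists were chosen with earlier results of these data known. *gpc5b* was added to 9 names given with the rule because its symbol fits the pattern. Named genes are all members, and of the heparan sulfate and Wnt lists the 2 most abundant genes of each and any called gene. Some markers, neighbours of *gpc1b* and genes near it in pattern are named besides.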

Additional observations from a re-analysis of the deposited data

How the results depend on the processing

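With all 4 libraries, *gpc1b* kept a log2 fold change between 1.85, with genotype as the only term and no replicate block, and 1.87, with DESeq2 and the replicate block. With 1 library left out it ranged from 1.63 to 2.12, and its direction was the same in every fit. Since that rise chose the family and both mutant libraries lay above both WT libraries, this is description and not support. The 8 other glypicans tested kept their sign under the 6 alternatives with all libraries that tested them, and 0 of the 8 were called. The fit with genotype as the only term called 0 of all genes, so its 0 says nothing about the glypicans. With 1 library left out only fold changes are given, since 1 genotype then has 1 library. Leaving out 1 library gave log2 fold changes from -0.0023 to 0.76 for *gpc1a*, -0.016 to 0.46 for *gpc2*, -1.30 to 1.52 for *gpc3*, -0.40 to 0.10 for *gpc4*, -0.93 to 0.49 for *gpc5c* and -2.73 to 0.57 for *gpc6a*, and these 6 changed sign in at least 1 such fit. *gpc5a* ranged from 0.41 to 1.03 and *gpc5b* from 0.076 to 1.19, and both kept their sign. Part of these fits have genotype as the only term and so hold unequal replicate numbers. With the block kept, such a fit rests on the pair left complete. There *gpc1a* (0.19 to 0.54), *gpc2* (0.19 to 0.24) and *gpc4* (-0.20 to -0.13) kept their sign. *gpc3* (-1.30 to 1.52), *gpc5c* (-0.89 to 0.45) and *gpc6a* (-1.98 to 0.078) changed sign with the block too. The cause was not tested.

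Over all genes, 203 calls became 0 without the replicate block, 434 with limma-voom, 128 with RLE size factors and 636 with no filter on low counts. The number of heparan sulfate genes called went to 1 with limma-voom, with no filter and with at least 10 counts in every library, each time *hs3st3b1b*, with adjusted p between 0.0266 and 0.0491 there. For the difference between replicate numbers, *gpc1a* was not called by DESeq2 (adjusted p = 0.103). *gpc1b* was called with no filter (0.0464) and with 10 counts in every library (0.0438). Depth limits *gpc3*, *gpc5b*, *gpc5c*, *gpc6a* and *gpc6b*, which had at most 82 counts in a library.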
